A study of Mus musculus with 2 samples.

Results

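The genes described here are 41 genes of fatty acid oxidation, ketogenesis and peroxisomes, out of 22180 genes measured in mouse liver. They were taken by name: each is a probe set, or the average of the probe sets, whose only gene symbol is that of the member. They were divided into 18 genes of mitochondrial oxidation, 10 enzymes of peroxisomal oxidation, 10 peroxins and 3 other genes. These 3, Bdh1, Pdk4 and Vnn1, are called ketogenesis and fuel switching here, a name that does not describe Vnn1. The study compared the livers of male wild-type (WT) mice with those of male mice of the E4bp4-LKO genotype, described in the series title as deficient in E4bp4. Both groups were 2 months old when the high-fat diet began, and 12 weeks of feeding followed. RNA of several mice per genotype was pooled and hybridised to 1 whole-transcript array per pool. The labels do not spell out LKO, name the driver of the deletion, or give the number of mice in a pool, the feeding state or the hour of collection.

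Fatty acids are broken down in the liver by 2 sets of enzymes. Mitochondria take up long chains as carnitine esters, shorten them in a spiral of dehydrogenation, hydration, dehydrogenation and thiolysis, and pass the acetyl-CoA on to the citric acid cycle or to ketone bodies. Peroxisomes shorten very long, branched and dicarboxylic chains with a parallel set of enzymes, which are imported by proteins called peroxins. Many of these genes are targets of the nuclear receptor PPARα, which is active in fasting and on fat-rich diets. E4BP4, encoded by Nfil3, is a repressor of the basic leucine zipper family that binds D-box elements and belongs to the output of the circadian clock.

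Values are log2 intensities after RMA, a standard normalisation for such arrays. A floor was set at 4.20, the median over genes of the mean of both arrays, and 11090 genes lay above it. Differences are on the log2 scale and are negative where E4bp4-LKO was lower than WT. With 1 array per genotype there is no replicate error, no difference was tested, and the values describe these 2 arrays. As a scale for reading them, differences of -0.54 and 0.49 bounded the central 95% of all genes over the floor. The differences of single probe sets had a pooled SD of 0.22 within a gene (555 genes with 2 probe sets). This is the spread of 1 probe set, and 2 probe sets of a gene differ from each other with a larger SD. Nfil3, the targeted gene, read 5.94 on the WT array and 4.47 on the E4bp4-LKO array. Where its probes lie with respect to the deletion was not examined.

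Markers of the labelled tissue were present. All 10 hepatocyte markers were above the floor, among them Alb at 12.77 on both arrays, and their summed linear intensity was 31811 (WT) and 33426 (E4bp4-LKO). For the counts that follow, 54.5% of all genes over the floor were lower on the E4bp4-LKO array. The marker list of skeletal muscle, a tissue that also oxidises fatty acids, was lower on that array in all 12 of the 14 genes above the floor, with a summed intensity of 941 against 526. Its 3 farthest genes were Myh2 (-1.83), Atp2a1 (-1.47) and Myh4 (-1.40). Of the stellate cell markers 10 of 10 were lower (2295 against 1754), led by Col3a1, Col1a1 and Lum at -1.15, -1.01 and -0.69. Endothelial markers were lower in 7 of 9 (2773 against 2424), with Lyve1 at -0.52, Vwf at -0.37 and Oit3 at -0.32. Macrophage markers were lower in 6 of 10 (1650 against 1636), with Gpnmb at -1.98, Trem2 at -0.67 and Itgax at -0.54, while Lyz2, Timd4, Marco and Clec4f were higher, at 0.40, 0.35, 0.32 and 0.17. The 8 adipocyte markers summed to 995 against 540, and to 338 against 319 without Cidec (-1.57). The 4 of them above the floor were lower, Lipe and Retn at -0.36 and -0.12, while Adipoq, Lep, Plin1 and Slc2a4 lay below the floor on both arrays. The part of such cells in the differences below was not tested, and in whole liver, fewer cells of a type and less RNA per cell cannot be told apart.

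Of the 41 members, 40 lay above the floor on both arrays and 1, Hadhb, lay below it on both. Among the 40, 24 were lower on the E4bp4-LKO array and 16 higher. The lower share was thus 60.0%, and 54.5% among all genes over the floor. Their median difference was -0.08 (1.05-fold lower), against -0.02 for all genes. At least 1.2-fold lower were 7 members, 17.5%, against 12.7% of all genes, and 1 member was at least 1.2-fold higher, 2.5%, against 10.6%. A difference of 1.5-fold or more was seen for 1 member, Vnn1, which was lower. The background shares at 1.5-fold were 2.06% lower and 1.51% higher. Vnn1 was also the only member outside the central 95% of all genes. Of the 40, 27 had a difference smaller than the SD of 0.22 within a gene. The share of all genes below that SD was not computed, so the count does not set the members apart. The SD of the differences of all genes over the floor was 0.27. The plot of levels on both arrays shows each member.

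**Figure D1:**
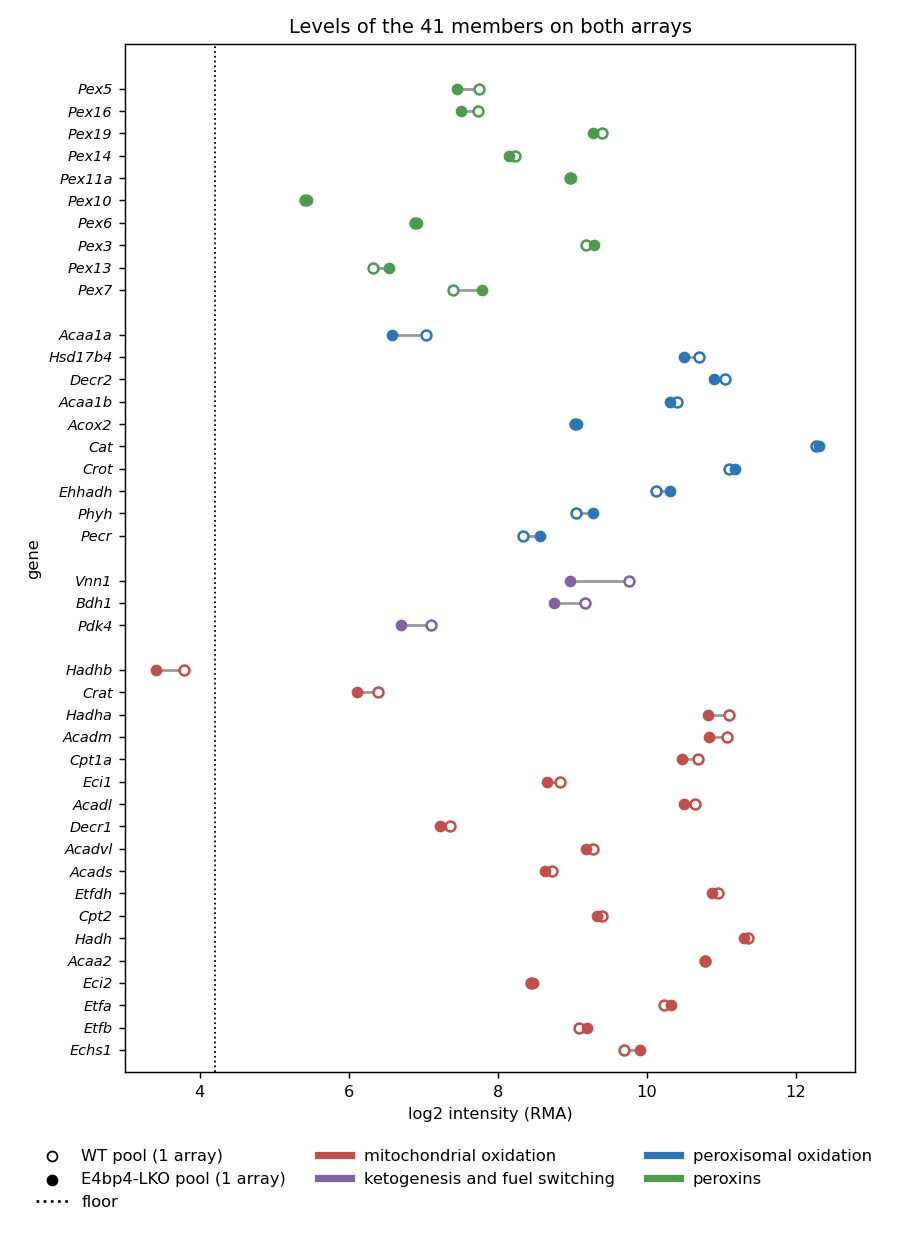
Log2 intensity (x axis) of each of the 41 members (y axis) on the WT array (open circles) and the E4bp4-LKO array (filled circles), ordered by difference within each group, with 1 array per genotype and the floor of 4.20 as a dotted line. All 3 genes of ketogenesis and fuel switching have the filled circle to the left; Hadhb is the only member left of the floor.

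The compartments were compared by their medians. Mitochondrial oxidation had a median difference of -0.09 over 17 genes above the floor (SD between genes 0.14), and 13 of the 17 were lower on the E4bp4-LKO array. Peroxisomal oxidation had a median of 0.04 over 10 genes (SD 0.22), with 4 lower and 6 higher. The peroxins had a median of 0.02 over 10 genes (SD 0.20), also with 4 lower and 6 higher. Mitochondrial oxidation therefore lay 0.13 below peroxisomal oxidation and 0.11 below the peroxins, gaps that were not tested. The 3 genes of ketogenesis and fuel switching were all lower, with a median of -0.41. That median is the value of Bdh1, the only enzyme of ketogenesis among them. Vnn1, a pantetheinase, belongs to neither function, so the group is not a pathway. Other genes of ketone bodies, from a wider list of pathway genes, went both ways: Acat1 was at 0.02, Bdh2 at 0.33 and Oxct1 at -0.21. Without Vnn1, Bdh1 and Pdk4, 21 of the other 37 members above the floor were lower, 56.8%, close to the background of 54.5%.

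**Figure D2:**
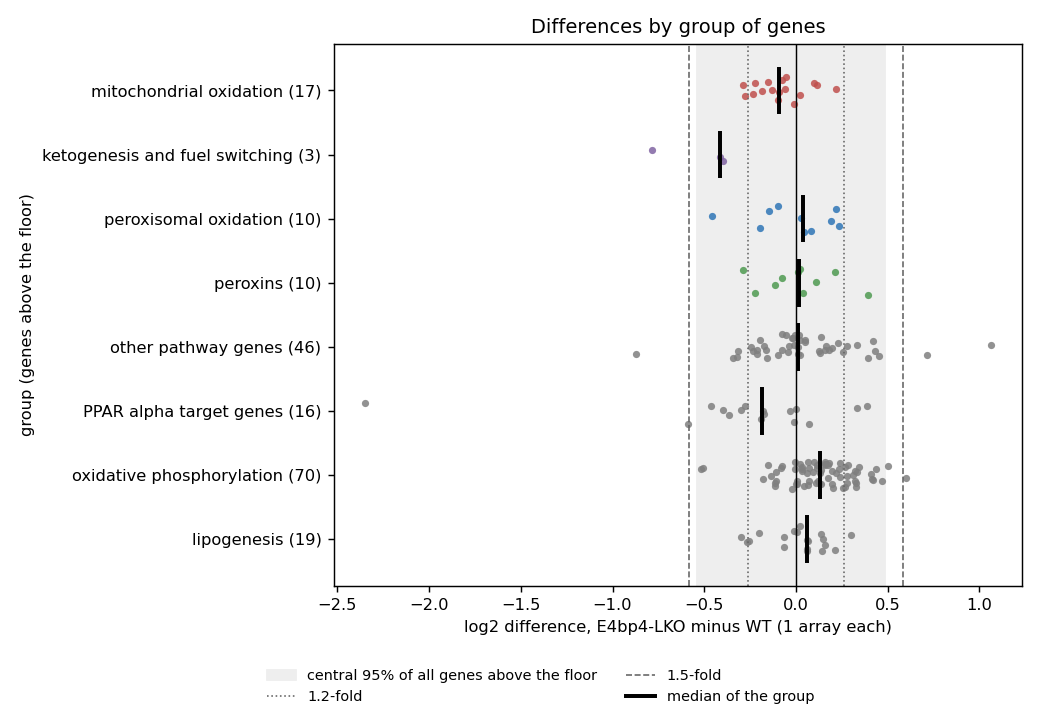
Log2 difference, E4bp4-LKO minus WT (x axis, 1 array each), of every gene above the floor in each group (y axis, number of genes in brackets; points are spread vertically for legibility). Black bars are group medians and the grey band spans the central 95% of all genes, from -0.54 to 0.49; the median is -0.09 for mitochondrial oxidation and 0.04 and 0.02 for the peroxisomal groups.

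The 3 genes of ketogenesis and fuel switching were among the 4 members farthest from 0, with the peroxisomal thiolase gene Acaa1a as the other. Vnn1 encodes vanin-1, a pantetheinase that recycles the coenzyme A precursor pantothenate and a well-known PPARα target. It read 9.76 on the WT array and 8.98 on the E4bp4-LKO array, a difference of -0.78 or 1.72-fold. Bdh1, the mitochondrial enzyme that turns acetoacetate into hydroxybutyrate, the last step of ketogenesis, read 9.17 and 8.76, which is 1.33-fold lower. Pdk4, the kinase that switches off pyruvate dehydrogenase and so spares glucose when fat is burned, read 7.10 and 6.70, which is 1.32-fold lower. All 3 were lower on the E4bp4-LKO array by more than the SD of 0.22 of probe sets within a gene. That SD was taken within the same arrays and does not measure variation between pools or mice. Bdh1 (-0.41) and Pdk4 (-0.40) lay inside the central 95% of all genes over the floor, from -0.54 to 0.49. Only Vnn1 lay outside that range.

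Promoter sequences from RefSeq (GRCm38.p6) were found for 35 members. Those of Vnn1, Crat, Decr1, Acaa2, Hsd17b4 and Pex19 were not used here. The 250 bases before each annotated start were searched on both strands, as were those of the 27025 genes whose windows were used. That set, called all genes in this paragraph, leaves out a whole chromosome. The D-box that E4BP4 binds, searched as TTATGTAA and TTACGTAA, was in none of the 35 and in 0.977% and 0.118% of all genes. The direct repeat that PPARα binds with its partner RXR, searched as AGGNCA repeated in the same direction with 1 base between, was in none of the 35 and in 0.400% of all genes. No match says only that these letters are not in this window. The CCAAT box (CCAAT, or ATTGG on the other strand), a common promoter element searched after the promoters had been seen, was in 17 of 35 members, 48.6%, against 37.5% of all genes. By group it was in 7 of 9 genes of peroxisomal oxidation, 6 of 15 of mitochondrial oxidation, 3 of 9 peroxins, and 1 of the 2 ketogenesis and fuel switching genes with a window, Pdk4. The Pdk4 promoter is shown as that of 1 of the 2 lower fuel genes with a window. It lies at chr6:5496279-5496528 on the minus strand, 5′ to 3′, with the CCAAT box in capitals.
Pdk4: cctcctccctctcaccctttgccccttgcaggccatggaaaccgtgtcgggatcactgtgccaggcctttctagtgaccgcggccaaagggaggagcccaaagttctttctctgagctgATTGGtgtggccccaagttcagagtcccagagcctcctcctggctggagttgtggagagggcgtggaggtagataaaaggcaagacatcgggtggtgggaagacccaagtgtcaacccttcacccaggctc

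Entry of fatty acids into mitochondria begins with Cpt1a, which makes the carnitine ester and is the regulated gate of the pathway. It read 10.69 on the WT array and 10.47 on the E4bp4-LKO array, a difference of -0.22. Cpt2, which takes the carnitine off again inside, read 9.40 and 9.34 (-0.06). Crat, which moves acetyl and other short acyl groups onto carnitine, read 6.39 and 6.11 as the average of 2 probe sets (-0.29). These probe sets did not give the same size: the brighter read 8.61 and 8.14 (-0.46), while the dimmer, at 4.18 and 4.07 (-0.11), lay below the floor. Cpt1a, Cpt2 and Crat were thus all lower, Cpt2 by the least, and 54.5% of all genes over the floor were lower. The difference of Cpt2 was below the SD of 0.22 of probe sets within a gene, and that of Cpt1a was about equal to it.

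The 4 acyl-CoA dehydrogenases among the members, which take the first pair of hydrogens from straight chains of different length, were all lower. Among all genes over the floor, 54.5% were lower. Acadm, for medium chains, read 11.07 and 10.84 (-0.23), the farthest from 0 of the 4. Acadl, Acadvl and Acads, for long, very long and short chains, had differences of -0.15, -0.10 and -0.09. These are below the SD of 0.22 of probe sets within a gene, and the difference of Acadm is just above it. Of the related dehydrogenases on a wider list of pathway genes, Acad10, Acad11 and Acad12 were at -0.24, -0.24 and -0.35, and Acad8, Acadsb and Acad9 at 0.16, 0.16 and 0.12. Their electrons pass through the electron transfer flavoprotein to the respiratory chain. Its subunits Etfa and Etfb were higher, at 0.10 and 0.11 (Etfb read 9.09 and 9.21), while its dehydrogenase Etfdh was at -0.08.

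In the later steps of the spiral the differences went both ways. Hadha, the alpha subunit of the mitochondrial trifunctional protein, which carries out the last 3 steps on long chains, read 11.11 and 10.83 (-0.28, 1.21-fold lower). Echs1, the short-chain enoyl-CoA hydratase, read 9.70 and 9.92 (0.22), the highest of the mitochondrial oxidation genes. The dehydrogenase Hadh was at -0.05 and the thiolase Acaa2 at -0.01. Of the auxiliary enzymes that prepare unsaturated chains, the isomerase Eci1 was at -0.19, the dienoyl-CoA reductase Decr1 at -0.13 and Eci2, an isomerase found in mitochondria and peroxisomes, at 0.02. Hadha and Echs1, which both hydrate enoyl-CoA, thus lay near opposite ends of the mitochondrial group.

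Hadhb, the beta subunit of the trifunctional protein, read 3.79 and 3.41, below the floor on both arrays, so no difference is drawn from it. It is the partner of Hadha in protein and in gene: the genes are neighbours on chromosome 5, are transcribed away from each other, and have annotated starts with 272 bases between them. The sequence between them is shown because it serves as the upstream region of both. It is given as the 250 bases before the start of Hadha, at chr5:30154981-30155230 on the minus strand, 5′ to 3′. The 228 capitals are bases that also lie within 250 bases before the start of Hadhb on the other strand.
Hadha: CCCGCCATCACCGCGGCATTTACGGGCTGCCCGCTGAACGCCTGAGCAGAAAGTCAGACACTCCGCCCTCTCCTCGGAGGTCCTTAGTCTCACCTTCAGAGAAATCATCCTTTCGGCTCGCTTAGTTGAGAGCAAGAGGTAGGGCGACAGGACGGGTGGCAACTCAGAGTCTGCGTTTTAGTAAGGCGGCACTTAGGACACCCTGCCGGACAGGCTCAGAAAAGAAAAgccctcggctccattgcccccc
Levels of different probe sets cannot be set against each other, and the arrays therefore do not show whether the subunits were present in equal amounts. The probe set of Hadhb gave no usable reading on these arrays.

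Among the peroxisomal enzymes, Acaa1a had the largest difference. It encodes the thiolase that ends each round of peroxisomal oxidation and read 7.04 on the WT array and 6.58 on the E4bp4-LKO array (-0.46, 1.37-fold lower). Its close paralog Acaa1b, on the same chromosome with 4 protein-coding genes between them in the RefSeq order, read 10.40 and 10.31 (-0.10). Probe sequences were not examined, so some signal may be common to these paralogs and each value alone is uncertain. Both were lower, by different amounts. Their promoters are shown to set these paralogs side by side, as the 250 bases before the start, 5′ to 3′, with CCAAT boxes of either strand in capitals: Acaa1a at chr9:119341044-119341293 on the plus strand, with 3 boxes, and Acaa1b at chr9:119157094-119157343 on the minus strand, with 2.
Acaa1a: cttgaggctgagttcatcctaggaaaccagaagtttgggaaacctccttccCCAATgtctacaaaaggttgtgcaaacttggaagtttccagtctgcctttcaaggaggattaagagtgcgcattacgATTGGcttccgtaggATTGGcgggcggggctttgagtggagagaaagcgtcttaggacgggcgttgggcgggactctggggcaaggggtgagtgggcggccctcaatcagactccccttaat
Acaa1b: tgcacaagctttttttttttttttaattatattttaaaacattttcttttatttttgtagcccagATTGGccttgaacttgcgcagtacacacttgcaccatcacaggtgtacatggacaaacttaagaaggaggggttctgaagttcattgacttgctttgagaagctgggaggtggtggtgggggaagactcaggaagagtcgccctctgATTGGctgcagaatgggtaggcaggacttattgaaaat

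The middle steps of the peroxisomal spiral are done by 2 bifunctional enzymes, which had differences of opposite sign. Ehhadh, the L-bifunctional enzyme and a strongly inducible PPARα target, read 10.12 and 10.31 (0.19). Hsd17b4, the D-bifunctional enzyme that also serves branched chains and bile acid precursors, read 10.70 and 10.50 (-0.20). Acox2, the oxidase for branched chains and bile acid precursors, was at 0.03. Crot, which makes the shortened chains into carnitine esters for export, was at 0.08, and Decr2, the peroxisomal dienoyl-CoA reductase, at -0.15. Each of these differences is below the SD of 0.22 of probe sets within a gene.

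The highest of the peroxisomal enzymes were Pecr and Phyh. Pecr, the peroxisomal enoyl-CoA reductase, read 8.34 and 8.57 (0.23). Phyh, the hydroxylase that starts alpha-oxidation of phytanic acid, read 9.06 and 9.28 as an average (0.22). Its probe sets gave like sizes, 0.26 for the one at 7.63 and 7.89 and 0.18 for the one at 10.49 and 10.67. Cat, catalase, which removes the hydrogen peroxide that peroxisomal oxidases make, read 12.27 and 12.31 (0.04).

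Among the 10 peroxins of the members, those at the ends of the range were the import receptors. Pex2, a peroxin from the wider list, lay beyond that range at 0.43. Pex5, the receptor for most matrix enzymes (those with the type 1 signal at the C-terminus), read 7.75 on the WT array and 7.46 on the E4bp4-LKO array (-0.29, 1.22-fold lower). Pex7, the receptor for the few enzymes with the type 2 signal near the N-terminus, which include the thiolases and Phyh, read 7.40 and 7.79 (0.39, 1.31-fold higher). Pex7 was the 1 member at least 1.2-fold higher. Its promoter is shown for that reason. It is given as the 250 bases before the start, at chr10:19907675-19907924 on the minus strand, 5′ to 3′, with its 2 CCAAT boxes in capitals.
Pex7: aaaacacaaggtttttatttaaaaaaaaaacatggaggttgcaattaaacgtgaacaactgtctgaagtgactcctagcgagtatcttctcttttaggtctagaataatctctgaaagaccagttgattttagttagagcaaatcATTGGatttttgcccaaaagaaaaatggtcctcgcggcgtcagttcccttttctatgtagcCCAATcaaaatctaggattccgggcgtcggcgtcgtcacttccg

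Of the docking proteins that receive the loaded receptors at the membrane, Pex13 read 6.32 and 6.54 (0.21) and Pex14 was at -0.07. Among those that place proteins in the membrane, Pex16 read 7.74 and 7.51 (-0.23), Pex19 was at -0.11 and Pex3 at 0.11. Pex10, a ubiquitin ligase subunit for receptor recycling, was at 0.02, and Pex6, an ATPase of the same cycle, at 0.04. Pex11a, which promotes division of peroxisomes and is induced with them by PPARα agonists, was at 0.01. The docking proteins and the proteins that place others in the membrane thus each had members on both sides of 0.

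A wider list of 57 genes of the same pathways held 48 with a probe set of their own, 46 of them above the floor. Its median difference was 0.01, with 22 genes lower and 24 higher. At least 1.2-fold lower were 4 (8.70%) and at least 1.2-fold higher 8 (17.4%), against 12.7% and 10.6% of all genes. At least 1.5-fold lower was 1 (2.17%) and at least 1.5-fold higher were 2, against 2.06% and 1.51% of all genes. These 3 encode proteins found in peroxisomes (Agxt also in mitochondria), as do many genes of the list. Hacl1, the lyase that follows Phyh in alpha-oxidation, read 9.21 on the WT array and 10.27 on the E4bp4-LKO array (1.06, 2.09-fold higher). Agxt, the aminotransferase that detoxifies glyoxylate, read 8.64 and 9.35 (0.72, 1.64-fold higher). Abcd2, a transporter of very long chains into the peroxisome, read 8.57 and 7.70 (-0.87, 1.83-fold lower). Pxmp2, a channel protein of the peroxisomal membrane, came next, at 8.86 and 9.31 (0.45). Hacl1, Agxt and Abcd2 each differed by more than every member on the same side of 0. Ppara itself read 8.45 and 8.28 (-0.17), and Slc25a20, which carries the carnitine esters across the inner mitochondrial membrane, 9.70 and 9.54 (-0.17); both were named after their values were seen, as was Pex2, the partner of Pex10, at 5.96 and 6.39 (0.43).

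**Figure D3:**
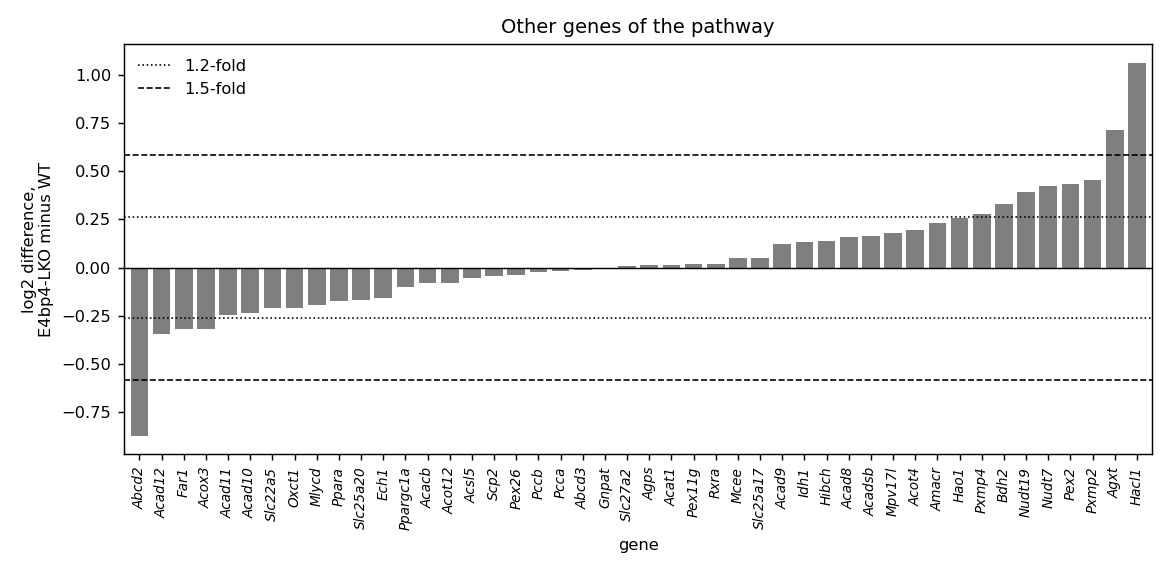
Log2 difference, E4bp4-LKO minus WT (y axis, 1 array each), of the 46 other pathway genes above the floor (x axis), in order of size, with lines at 1.2-fold and 1.5-fold. Abcd2 (-0.87) stands at the low end and Agxt (0.72) and Hacl1 (1.06) at the high end, and 22 bars are below 0 and 24 above.

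Known PPARα targets outside the members were more often lower than higher. On the E4bp4-LKO array 12 of 16 read lower, against 54.5% of all genes, with a median of -0.19. Cidea, a lipid droplet protein that other receptors also control, read 7.38 and 5.03 (-2.35). Txnip, a regulator of glucose uptake, read 9.14 and 8.55 (-0.59). Acot2, a mitochondrial thioesterase, read 10.48 and 10.02 (-0.46), and Mgll, the monoglyceride lipase, 8.49 and 8.10 (-0.40). Acot3 and Acot1, close paralogs of Acot2, were at least 1.2-fold higher, at 0.39 and 0.33, and 7 genes of the list were at least 1.2-fold lower. These shares were 12.5% higher and 43.8% lower, against 10.6% and 12.7% of all genes. Without Cidea, 11 of 15 were lower. The list was written with the members' earlier results known and is no independent support for the differences of Vnn1, Bdh1 and Pdk4. Cyp4a14 and Fabp1, named after their values were seen as PPARα targets of the liver, read 10.68 and 10.75 (0.07) and 11.69 on both arrays.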

How the data were processed

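The authors deposited a log2 intensity for each probe set on each array; the submitters' processing notes list RMA and R 3.4.0. RMA corrects background, makes the distributions of the arrays equal and summarises probes on the log2 scale, which draws differences of dim genes towards 0. A genome build is not given in the sources used here, and detection calls were not used. Array medians were 3.74 (WT) and 3.75 (E4bp4-LKO), and no centring by gene was seen.

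Of 41345 probe sets, 23521 had 1 gene symbol in the platform annotation, 1814 had several and 16010 had none. Probe sets with 1 symbol were averaged per gene, which gave 22180 genes. The floor is the median over genes of the mean of both arrays. All 41 members were found in RefSeq's GRCm38.p6 gene table through their Entrez identifiers. Medians and counts were computed with pandas 2.3.3, the intensity trend with statsmodels 0.14.6 (lowess fraction 0.3), and figures with matplotlib 3.10.9. The procedure was tested on simulated data with planted changes of 1.5-fold or more. That checks the computation and does not show how reliable the smaller differences of most members are. With 1 array per genotype no test was run, and the number of arrays limits the precision.

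The members and lists were chosen with earlier results of these data known. Named with values are members at least 1.2-fold apart, the 2 members farthest from 0 in each direction in each compartment, 10 best known members, up to 4 genes of each list of other pathway genes and all of those at least 1.5-fold apart, up to 3 of each related or marker list, and Nfil3. Genes named outside this rule were chosen after their values were seen. Alternatives were other floors, the brightest probe set, centring, probe sets with several symbols and other compartments for Eci2, Bdh1 and Pdk4.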

Additional observations from a re-analysis of the deposited data

How the results depend on the processing

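The 12 values that describe the members and their compartments were recomputed under the alternatives, which gave 80 values. All 80 met the criteria used here: a median moved by less than 0.05 on the log2 scale, a count by no more than 1.5 times. These criteria are loose, as 0.05 exceeds the medians of peroxisomal oxidation (0.04) and the peroxins (0.02). The brightest probe set and probe sets with several symbols left all 12 values as they were. These settings could change little. Of the members, 39 have 1 probe set, and probe sets with several symbols changed the value of no member. Subtracting 1 median from all genes cannot change a gap between compartments. Only the gap between peroxisomal oxidation and peroxins changed sign. The mitochondrial oxidation median lay between -0.10 and -0.07, the peroxisomal oxidation median between 0.03 and 0.06, and the peroxin median between 0.01 and 0.04. From 6 to 8 members were at least 1.2-fold lower. The gap between peroxisomal oxidation and peroxins, 0.02 in the main setting, ran from -0.01 to 0.02, so its sign was not fixed. Of the members, 1 changed sign when the median of all genes was subtracted, Acaa2, from -0.01 to 0.01. Crat depended on its probe sets, at -0.29 by the average and -0.46 by the brighter. No paired analysis was possible because each genotype has 1 array. The same lack of replicates and of detection calls means that differences of the size seen for most members cannot be set against the variation between mice.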

Other observations

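The genes of oxidative phosphorylation and the fatty acid oxidation genes of the same organelle had medians on opposite sides of 0. Of 70 oxidative phosphorylation genes above the floor, 56 were higher on the E4bp4-LKO array, with a median log2 difference of 0.13, and 19 were at least 1.2-fold higher. Among all genes over the floor, 45.5% were higher and 10.6% at least 1.2-fold higher. The farthest from 0 were Ndufa7, a subunit of complex I (5.72 on the WT array and 6.32 on the E4bp4-LKO array), Cox6a2, the muscle isoform of a cytochrome oxidase subunit (4.95 and 4.44), and Ndufb11 (5.47 and 4.96). Lipogenesis genes had a median of 0.06, with 12 of 19 higher (45.5% of all genes). Thrsp (10.63 and 10.93), Dgat1 (6.45 and 6.16) and Gpam (11.06 and 10.79) were the 3 farthest from 0. None of these medians was tested against that of mitochondrial oxidation, since genes of 1 pair of arrays are not replicates.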
